A study of Mus musculus with 9 samples.

Results

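The genes described here are 38 markers of monocytes and macrophages, a set of surface, scavenger, lysosomal, complement and pattern receptor genes chosen by symbol. The set was chosen with earlier results of these data known, so shares of members beside all genes describe it and test nothing. They were 38 of 18194 genes measured, and 79 probe sets carried their symbols, of which the brightest on average over all arrays stood for each gene. Monocytes arise in bone marrow from granulocyte and monocyte progenitors and leave it to become macrophages in tissues. Macrophages engulf dead cells and microbes, digest them in lysosomes with cathepsins, and sense microbial products through Toll-like receptors. Acute myeloid leukemias driven by MLL-AF9, a fusion of the histone methyltransferase MLL with AF9, often keep part of this monocytic program.

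The series holds 9 arrays of mouse leukemias in 3 groups of 3, all from freshly harvested bone marrow cells of a C57/BL6 X 129 background, with 100 ng of total RNA labelled per array. Af10 deleted and Af10 floxed leukemias both came from primary MLL-AF9 leukemias with 2 floxed copies of Af10 (Mllt10), which encodes a partner of the histone methyltransferase DOT1L. The deleted group had received a tdTomato vector expressing Cre recombinase (CRE), the floxed group the same vector without Cre (MIT), and both were grown in secondary recipients and sorted for tdTomato. The third group, Hoxa9-Meis1, consisted of primary leukemias made by transduction of those genes, for which the labels name no change of Af10, and was used without sorting. Because Cre was present in the deleted group alone, its own effect and the loss of Af10 cannot be told apart. Comparisons with Hoxa9-Meis1 leukemias also change the oncogene, the vector, the transplant generation and the sort, which cannot be told apart either. The labels do not say that arrays of a group come from separate mice or separate primary leukemias, and p-values reflect only the scatter of these samples, part of which may be technical.

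Median intensity was 145.9 to 146.4 on the deleted, 151.5 to 152.9 on the floxed and 152.2 to 156 on the Hoxa9-Meis1 arrays. Mllt10 was at 9.93, 9.89 and 10.19 on the deleted arrays and at 11.20, 10.49 and 11.18 on the floxed arrays, so that it fell by 0.95 in log2 units (SE 0.21, limma adjusted p = 0.0293). That call was lost without deleted replicate 4 or 5, without floxed replicate 4 or 6, and with only the MLL-AF9 arrays in the fit, where the largest adjusted p was 0.09. Levels here are log2(intensity + 1), errors after ± are SD over 3 arrays, and SE belongs to the fitted difference. A gene was called where its limma adjusted p, corrected over all 18194 genes, was under 0.05. Probe sets of 3 Y-linked genes, which gauge the dimmest signals, lay between 2.97 and 4.71, and none of the members' 9 values each fell within that range. The lowest was Cd36 at 4.87, and C1qa and Axl stayed under 6 on every array. A bulk array cannot tell fewer cells of a type apart from less RNA per cell.

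Compared with the floxed leukemias, 3 members fell in the deleted leukemias (Ly86, Cd163 and Ctsl) and 3 rose (Tlr4, Cd80 and C1qc). Of all genes, 3.63% were called lower and 3.22% higher in this comparison, against 7.89% of the members in each direction. Ly86 fell by 2.93 on the log2 scale and Cd163 fell by 2.81, and each differed from Hoxa9-Meis1 leukemias in the same direction. The other members, among them the lysozyme gene Lyz2 and the adaptor gene Tyrobp, did not pass the test. Fitted differences lay in both directions, 20 above 0 and 18 below. Their median difference was 0.0917 on the log2 scale, beside 0.0616 over all genes.

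Sequence upstream of 4 called members, picked for display, is shown. Each window was cut so that it holds no transcribed bases of the annotated gene. Ctsl and Cd80 were also called and had promoter entries, but are not shown. The bases come from RefSeq promoters of build GRCm38.p6, in which 27 of the 38 members had an entry, and end at the last base before the gene. They run 5′ to 3′ on the gene's strand, with any match to the core of the PU.1 motif (GAGGAA on either strand) in capitals. Ly86 lies on the plus strand with the window chr13:37345095-37345344, Cd163 on the plus strand with chr6:124304401-124304635, Gpnmb on the plus strand with chr6:49036268-49036517, and C1qc on the minus strand with chr4:136892937-136893164.
Ly86: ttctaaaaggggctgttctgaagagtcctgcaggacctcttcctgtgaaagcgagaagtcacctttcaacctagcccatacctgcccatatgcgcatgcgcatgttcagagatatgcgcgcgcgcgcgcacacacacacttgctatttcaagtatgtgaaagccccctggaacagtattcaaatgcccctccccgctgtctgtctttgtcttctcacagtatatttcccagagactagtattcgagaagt
Cd163: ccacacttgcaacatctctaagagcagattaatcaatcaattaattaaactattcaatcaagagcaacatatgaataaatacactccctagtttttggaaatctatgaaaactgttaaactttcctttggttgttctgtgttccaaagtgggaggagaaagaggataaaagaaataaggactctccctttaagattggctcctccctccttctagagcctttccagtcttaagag
Gpnmb: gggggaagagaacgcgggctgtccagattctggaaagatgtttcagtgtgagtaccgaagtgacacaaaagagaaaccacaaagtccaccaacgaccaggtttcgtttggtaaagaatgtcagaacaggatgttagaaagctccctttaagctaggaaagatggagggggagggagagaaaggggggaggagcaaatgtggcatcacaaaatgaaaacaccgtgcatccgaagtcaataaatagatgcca
C1qc: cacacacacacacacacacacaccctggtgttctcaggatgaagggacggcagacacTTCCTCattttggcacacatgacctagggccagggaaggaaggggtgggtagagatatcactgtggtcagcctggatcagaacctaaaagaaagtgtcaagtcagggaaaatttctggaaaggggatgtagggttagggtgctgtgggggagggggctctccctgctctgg
PU.1, encoded by Spi1, is a transcription factor required for monocyte development. The C1qc window held 1 match, 171 bases before the gene, and these letters did not occur in the windows of Ly86, Cd163 or Gpnmb. Over the 250 bases before each annotated start, 12 of 32 member promoters (37.5%), belonging to 10 of 27 genes, held GAGGAA, against 23.3% of 32851 promoters. The letters TTGCNNAA, a C/EBP motif, were in 6.25% of member promoters and 9.56% of all, and TGANTCA, an AP-1 motif, in 12.5% and 6.75%. TGACAG, a MEIS motif, was in 6.25% and 15.9%. Each motif was searched on both strands, and none of the motifs contains another. These matches describe the letters in the windows and show no binding.

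Ly86, also called MD-1, is the secreted partner of the Toll-like receptor homologue RP105, encoded by Cd180. Its level was 9.03, 9.37 and 8.67 on the deleted arrays, 11.86, 12.14 and 11.86 on the floxed arrays, and 11.98, 12.12 and 11.93 on the Hoxa9-Meis1 arrays. All 3 deleted arrays lay far below every other array, and the other 2 groups overlapped. The deleted level was 7.63-fold below the floxed level (-2.93 on the log2 scale, SE 0.18, limma adjusted p = 5.71e-05) and 7.92-fold below the Hoxa9-Meis1 level (adjusted p = 1.86e-05). Floxed and Hoxa9-Meis1 leukemias differed by -0.05 (95% interval -0.45 to 0.34). Both calls held under every alternative setting and with each array left out, with fitted differences from floxed of -3.10 to -2.66.

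Cd180 is not among the 38 genes but stands in the list of other genes of the Toll-like receptor pathway. It was at 8.75, 9.87 and 8.39 in the deleted, 10.34, 10.65 and 11.41 in the floxed, and 10.93, 11.20 and 11.25 in the Hoxa9-Meis1 leukemias. The receptor gene was lower in the deleted group as its partner was, by -1.79 on the log2 scale from floxed (SE 0.38, adjusted p = 0.0255) and by -2.12 from Hoxa9-Meis1 (adjusted p = 0.00649). Against floxed, the call was lost without deleted replicate 4 or 6, without floxed replicate 5 or 6, and with only the MLL-AF9 arrays in the fit, with an adjusted p of at most 0.166.

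Tlr4, the receptor for bacterial lipopolysaccharide, moved the other way. It was at 9.93, 10.09 and 9.78 on the deleted arrays, 7.89, 8.19 and 9.37 on the floxed arrays, and 8.94, 9.13 and 9.09 on the Hoxa9-Meis1 arrays. The deleted arrays stood above all others, and floxed replicate 6 was the nearest to them. Tlr4 rose 2.73-fold from floxed (1.45 on the log2 scale, SE 0.32, adjusted p = 0.0298), and in the fit of every probe set 3 of its 4 passed. The remaining probe set, 1430695_at, was no brighter than the Y-linked ones on any array. Against Hoxa9-Meis1 the difference of 0.88 did not pass (adjusted p = 0.103). It passed with only the deleted and Hoxa9-Meis1 groups in the fit (adjusted p = 0.00556). Floxed and Hoxa9-Meis1 leukemias differed by -0.57 (adjusted p = 0.331), and by -1.01 without floxed replicate 6 (adjusted p = 0.00871). The rise from floxed was lost when any MLL-AF9 array but floxed replicate 6 was left out, and with array weights or a fit of the MLL-AF9 arrays alone, with an adjusted p of at most 0.196.

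The remaining members of the Toll-like receptor group did not pass against floxed. Myd88, the adaptor below most Toll-like receptors, was at 9.87, 10.05 and 9.79 in the deleted and 9.15, 8.72 and 9.43 in the floxed leukemias, which did not overlap (difference 0.81, adjusted p = 0.108). Tlr7, a sensor of single-stranded RNA, stayed between 7.87 and 8.35 on all 9 arrays on its representative probe set. Its probe set 1422010_at ranged from 5.94 to 7.35 and did not pass in any comparison. Tlr2, a receptor for bacterial lipoproteins, was spread over 7.26 to 9.62 within the deleted group alone. Ly96 (MD-2), the partner of Tlr4, is not a member and is given here after its values were seen: it differed by 0.56 from floxed (adjusted p = 0.321) and was higher than in Hoxa9-Meis1 by 1.44 (adjusted p = 0.0134). Of the 31 other pathway genes measured, Tlr5, the flagellin receptor, rose by 1.02 (adjusted p = 0.0385) and Cd180 fell, and the list's median difference was 0.0741. The Tlr5 call was lost in 8 of 16 alternatives, among them a pseudocount of 32, array weights, the MLL-AF9 arrays alone, and a fit without deleted replicate 5 or 6 or floxed replicate 4 or 5.

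**Figure D1:**
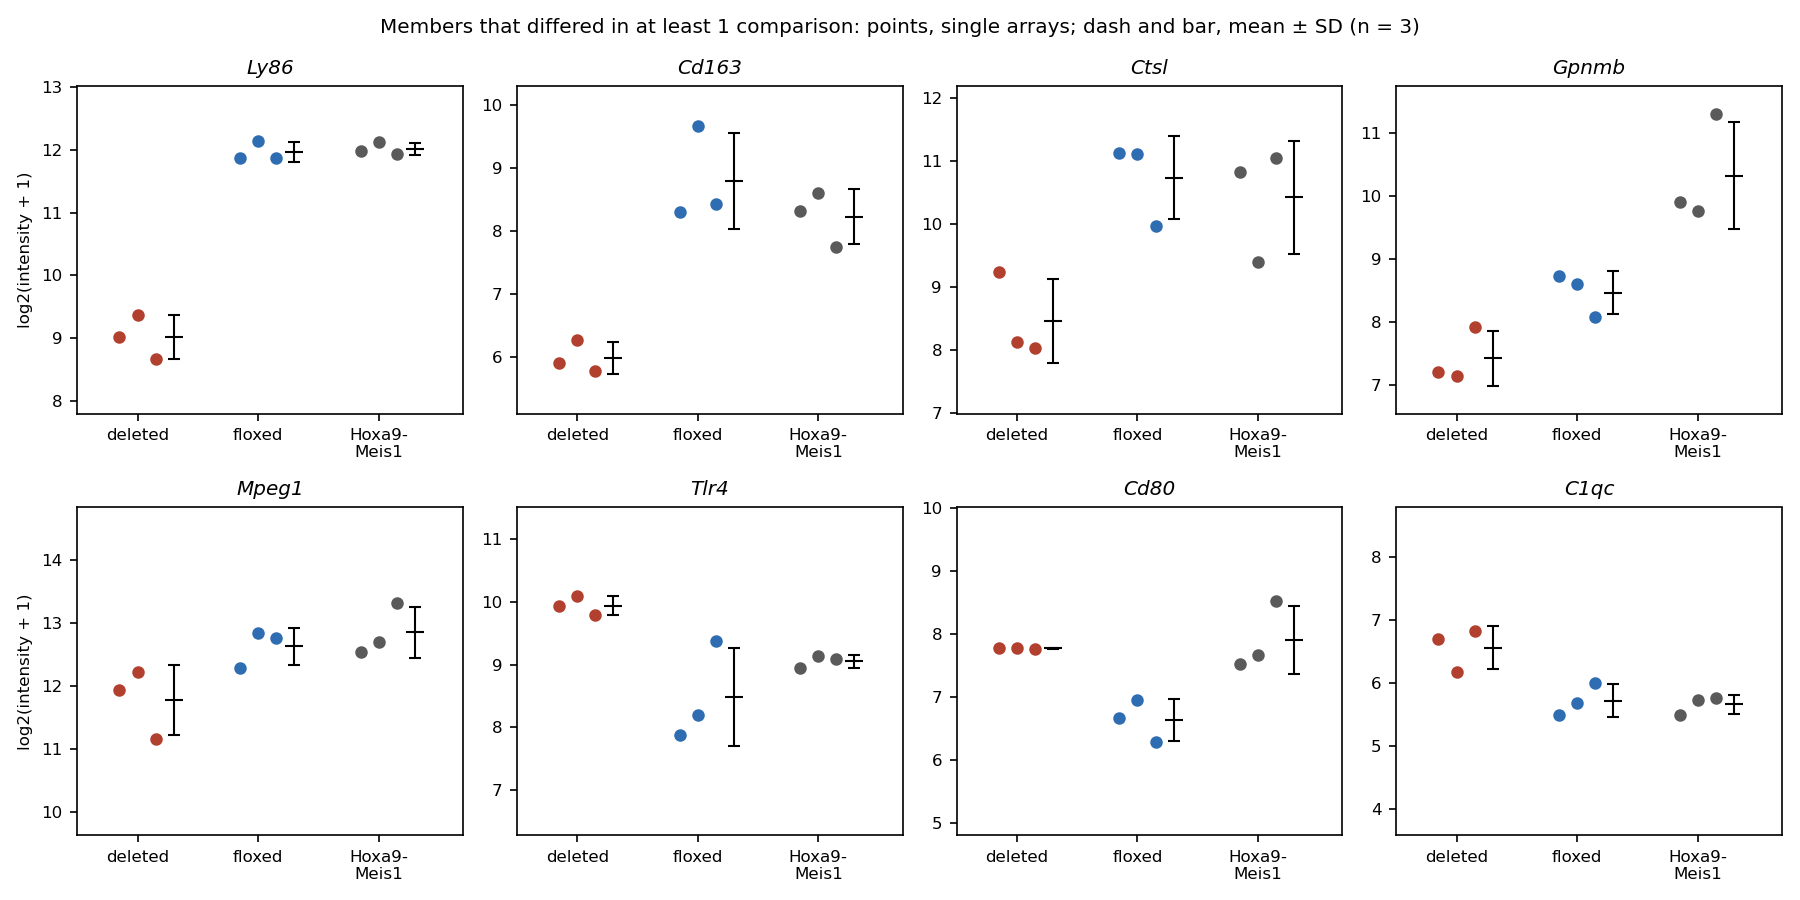
Level as log2(intensity + 1) of the 8 members called in at least 1 comparison, by group; points are single arrays, and the dash with its bar is the mean ± SD of 3 arrays. The deleted arrays of Ly86 and Cd163 lie below all other arrays, those of Tlr4 and C1qc above all other arrays, and the axes start at different levels.

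Cd163, the macrophage receptor for hemoglobin bound to haptoglobin, was the second large fall. It was at 5.90, 6.27 and 5.79 on the deleted arrays, 8.30, 9.67 and 8.43 on the floxed arrays, and 8.32, 8.60 and 7.75 on the Hoxa9-Meis1 arrays. All deleted arrays lay below all others, while the floxed and Hoxa9-Meis1 arrays overlapped. Cd163 was 7.03-fold below floxed (-2.81 on the log2 scale, SE 0.36, adjusted p = 0.00262) and 4.72-fold below Hoxa9-Meis1 (adjusted p = 0.00397), and both calls held under every alternative setting and with each array left out. The difference of 0.57 between floxed and Hoxa9-Meis1 did not pass (adjusted p = 0.385).

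The other 5 scavenger and lectin receptors did not pass in any comparison. Their differences between deleted and floxed leukemias lay between 0.28 and 0.69 on the log2 scale. Msr1, a receptor for modified lipoproteins, was at 8.08 ± 0.08, 7.69 ± 0.22 and 7.88 ± 0.48 in the deleted, floxed and Hoxa9-Meis1 groups. Clec7a, which encodes the beta-glucan receptor Dectin-1, was at 8.45 ± 0.52, 8.16 ± 0.46 and 8.96 ± 1.24, so its spread within Hoxa9-Meis1 exceeded its differences between groups. Marco, another scavenger receptor, was at 6.71 ± 0.17, 6.43 ± 0.04 and 6.36 ± 0.15. Mrc1, the mannose receptor, and Cd36, which takes up fatty acids, were dim, with the highest values 6.93 on Hoxa9-Meis1 replicate 1 and 6.51 on deleted replicate 4. In a list of 18 other scavenger and lipid handling genes, only Fabp5, a fatty acid carrier, passed: it fell by 1.82 (SE 0.30, adjusted p = 0.00871).

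Among the lysosomal genes Ctsl changed and the rest did not pass. Ctsl, the protease cathepsin L, was at 9.23, 8.13 and 8.03 on the deleted arrays, 11.12, 11.11 and 9.98 on the floxed arrays, and 10.83, 9.40 and 11.05 on the Hoxa9-Meis1 arrays. The deleted arrays were the 3 lowest, and in each group 1 array lay farther from its fellows than deleted replicate 4 lay from floxed replicate 6. Ctsl fell by 2.27 from floxed (SE 0.51, 4.84-fold, adjusted p = 0.0303) and by 1.97 from Hoxa9-Meis1 (adjusted p = 0.0308). The call against floxed was lost without deleted replicate 5 or 6, without floxed replicate 4 or 5, with array weights and with the mean of both probe sets, where the adjusted p was at most 0.21. The call against Hoxa9-Meis1 was lost without deleted replicate 5 or 6 or Hoxa9-Meis1 replicate 1 or 3 (at most 0.197). The second probe set, 1457724_at, differed by -0.98 from floxed (adjusted p = 0.437) and by -3.17 from Hoxa9-Meis1 (adjusted p = 0.0138).

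Ctsb and Ctsd, the cathepsins B and D, and Lyz2, which encodes the lysozyme of myeloid cells, were far above the Y-linked range in every group. Ctsb lay between 12.76 and 13.24 on all 9 arrays. Lyz2 was at 13.80 ± 0.26, 13.45 ± 0.20 and 13.74 ± 0.54 in the deleted, floxed and Hoxa9-Meis1 groups. Ctsd was at 12.02 ± 0.16, 11.52 ± 0.38 and 11.91 ± 0.05, with deleted arrays above floxed arrays but an adjusted p of 0.149. Ctss, cathepsin S, which trims the invariant chain of MHC class II, was at 11.29, 11.25 and 10.19 on the deleted arrays and 11.78, 12.34 and 12.12 on the floxed arrays (difference -1.17, adjusted p = 0.239). Its Hoxa9-Meis1 values were 10.67, 10.73 and 12.76, and without the highest, replicate 3, Ctss was higher in floxed than in Hoxa9-Meis1 leukemias by 1.38 (adjusted p = 0.0368). Lgmn, an asparaginyl endopeptidase of lysosomes, was at 6.64 ± 0.24, 7.33 ± 0.44 and 6.73 ± 0.33. Of 35 other lysosomal genes 2 rose and 3 fell from floxed, among them Neu1, a sialidase, higher by 1.12 (adjusted p = 0.0233). Dnase2a, which digests DNA in lysosomes, fell by 0.95 (adjusted p = 0.0347), and Scarb2, a lysosomal membrane receptor, fell by 0.83 (adjusted p = 0.0145). The Neu1 call was lost without deleted or floxed replicate 4 or 5, the Dnase2a call without any deleted array or floxed replicate 5, with the replicate block and with the MLL-AF9 arrays alone, and the Scarb2 call without floxed replicate 5.

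C1q, the first component of classical complement, is built of 3 chains, and macrophages are a main source of it. C1qc was at 6.69, 6.17 and 6.82 on the deleted arrays, 5.49, 5.67 and 5.99 on the floxed arrays, and 5.49, 5.73 and 5.76 on the Hoxa9-Meis1 arrays. The deleted arrays were the 3 highest, by a gap smaller than the range within either MLL-AF9 group. It rose 1.79-fold from floxed (0.84 on the log2 scale, SE 0.20, adjusted p = 0.0366) and 1.86-fold from Hoxa9-Meis1 (adjusted p = 0.0158). The call against floxed was lost without deleted replicate 4 or 6, without floxed replicate 4 or 5, with array weights, after subtracting chromosome medians and with the MLL-AF9 arrays alone, with an adjusted p of at most 0.234. Against Hoxa9-Meis1 it was lost without deleted replicate 4 or Hoxa9-Meis1 replicate 1.

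The other chains did not pass with all arrays in the fit. C1qb was at 7.50, 6.05 and 7.11 on the deleted arrays and 5.10, 6.03 and 6.36 on the floxed arrays, which overlapped (difference 1.06, adjusted p = 0.172). In the fit of every probe set, its dim 1417063_at was higher than floxed without overlap (0.79, adjusted p = 0.106). Probe set 1437726_x_at differed by 1.79 (adjusted p = 0.269). Against Hoxa9-Meis1 the representative differed by 1.21 (adjusted p = 0.0822), and passed without deleted replicate 5 (1.63, adjusted p = 0.0262). C1qa lay between 5.19 and 5.60 on all arrays. In a list of 14 other complement genes, C6, a part of the membrane attack complex, rose by 0.94 (adjusted p = 0.0438) and none fell, a call lost without any MLL-AF9 array except floxed replicate 4, with a pseudocount of 32, with array weights and with the MLL-AF9 arrays alone.

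Cd80 and Cd86 encode the ligands that macrophages and dendritic cells show to CD28 on T cells. Cd80 was at 7.77 on each deleted array, at 6.67, 6.95 and 6.29 on the floxed arrays, and at 7.52, 7.66 and 8.53 on the Hoxa9-Meis1 arrays. The floxed arrays were the low ones, and the deleted arrays lay within the Hoxa9-Meis1 range. Cd80 rose by 1.13 from floxed in the deleted group (SE 0.26, adjusted p = 0.0341) and was lower in floxed than in Hoxa9-Meis1 leukemias by 1.27 (-1.27, adjusted p = 0.0185), while deleted and Hoxa9-Meis1 differed by -0.13 (95% interval -0.72 to 0.45). Its other 3 probe sets were higher in the deleted group by 0.29 to 0.40 and did not pass. The rise was lost when any single MLL-AF9 array was left out, with a pseudocount of 32, with the mean of the probe sets and with replicate numbers as a block, where the adjusted p was at most 0.176. The difference between floxed and Hoxa9-Meis1 leukemias was lost without floxed replicate 6 or with those 2 groups alone. Cd86 was at 6.62, 8.07 and 5.81 on the deleted arrays and between 5.31 and 6.34 on the others, a wide spread beside its difference of 0.87 (adjusted p = 0.348).

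None of the 9 surface markers was called between deleted and floxed leukemias, although 4 differed by more than 1 on the log2 scale. Cd14, the co-receptor for lipopolysaccharide, was at 10.56, 10.82 and 8.87 on the deleted arrays and at 8.98, 8.03 and 8.38 on the floxed arrays. Deleted replicate 6 thus lay within the floxed range and the other deleted arrays above it (difference 1.62, adjusted p = 0.139). Without deleted replicate 6 the difference was 2.23 and passed (adjusted p = 0.0445). In Hoxa9-Meis1 leukemias Cd14 was at 9.90, 9.23 and 11.11.

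Deleted replicate 6 was also the lowest array for several markers whose deleted mean lay below the floxed mean. Cd68, a lysosomal membrane glycoprotein of macrophages, was at 10.72, 10.79 and 9.17 on the deleted and 11.41, 11.01 and 11.59 on the floxed arrays (difference -1.11, adjusted p = 0.188). Ms4a6c, a membrane protein of monocytes, was at 10.50, 10.30 and 8.98 against 10.41, 11.65 and 11.66 (difference -1.31, adjusted p = 0.178). The Cd68 groups did not overlap and the Ms4a6c groups did.

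Mpeg1, a pore-forming protein of macrophages, was at 11.93, 12.23 and 11.16 on the deleted arrays, 12.29, 12.84 and 12.76 on the floxed arrays, and 12.55, 12.70 and 13.32 on the Hoxa9-Meis1 arrays. The deleted arrays were the 3 lowest. It was called against Hoxa9-Meis1 (-1.08, SE 0.30, adjusted p = 0.0411) and not against floxed (-0.86, adjusted p = 0.132). The call was lost without deleted replicate 4 or 6, without any of the 3 Hoxa9-Meis1 arrays, with a pseudocount of 32, with arrays centred on their median and with those 2 groups alone, with an adjusted p of at most 0.128.

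Gpnmb, a membrane glycoprotein of macrophages and osteoclasts, set the Hoxa9-Meis1 group apart. It was at 7.20, 7.14 and 7.92 on the deleted arrays, 8.72, 8.60 and 8.08 on the floxed arrays, and 9.90, 9.77 and 11.30 on the Hoxa9-Meis1 arrays. The groups stood in 3 steps without overlap. The deleted level was 7.48-fold below Hoxa9-Meis1 (-2.90 on the log2 scale, SE 0.40, adjusted p = 0.00179) and the floxed level 3.62-fold below it (-1.86, adjusted p = 0.0218), whereas deleted and floxed did not pass (-1.05, adjusted p = 0.163). The deleted call held under every alternative and with each array left out, and the floxed call was lost without floxed replicate 5 or 6 (adjusted p at most 0.0633). Its second probe set, 1439345_at, differed in the same direction in all 3 comparisons and passed between deleted and Hoxa9-Meis1 leukemias (-3.34, adjusted p = 0.00923).

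Cx3cr1, the fractalkine receptor of patrolling monocytes, was at 8.31 ± 0.78, 9.16 ± 0.76 and 8.44 ± 0.53 in the deleted, floxed and Hoxa9-Meis1 groups. Adgre1, an adhesion receptor that marks mouse macrophages, was at 9.13 ± 0.85, 9.28 ± 0.71 and 9.70 ± 0.15. Neither passed in any comparison: Cx3cr1 differed by -0.85 between deleted and floxed leukemias (adjusted p = 0.334) and Adgre1 by -0.15 (adjusted p = 0.871). The second Cx3cr1 probe set, 1450019_at, differed by -1.37 there and by 1.62 between floxed and Hoxa9-Meis1 leukemias (adjusted p = 0.264 and 0.169). Ms4a7 was dim, between 5.03 and 5.80 on all arrays but Hoxa9-Meis1 replicate 2, where it reached 7.05.

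**Figure D2:**
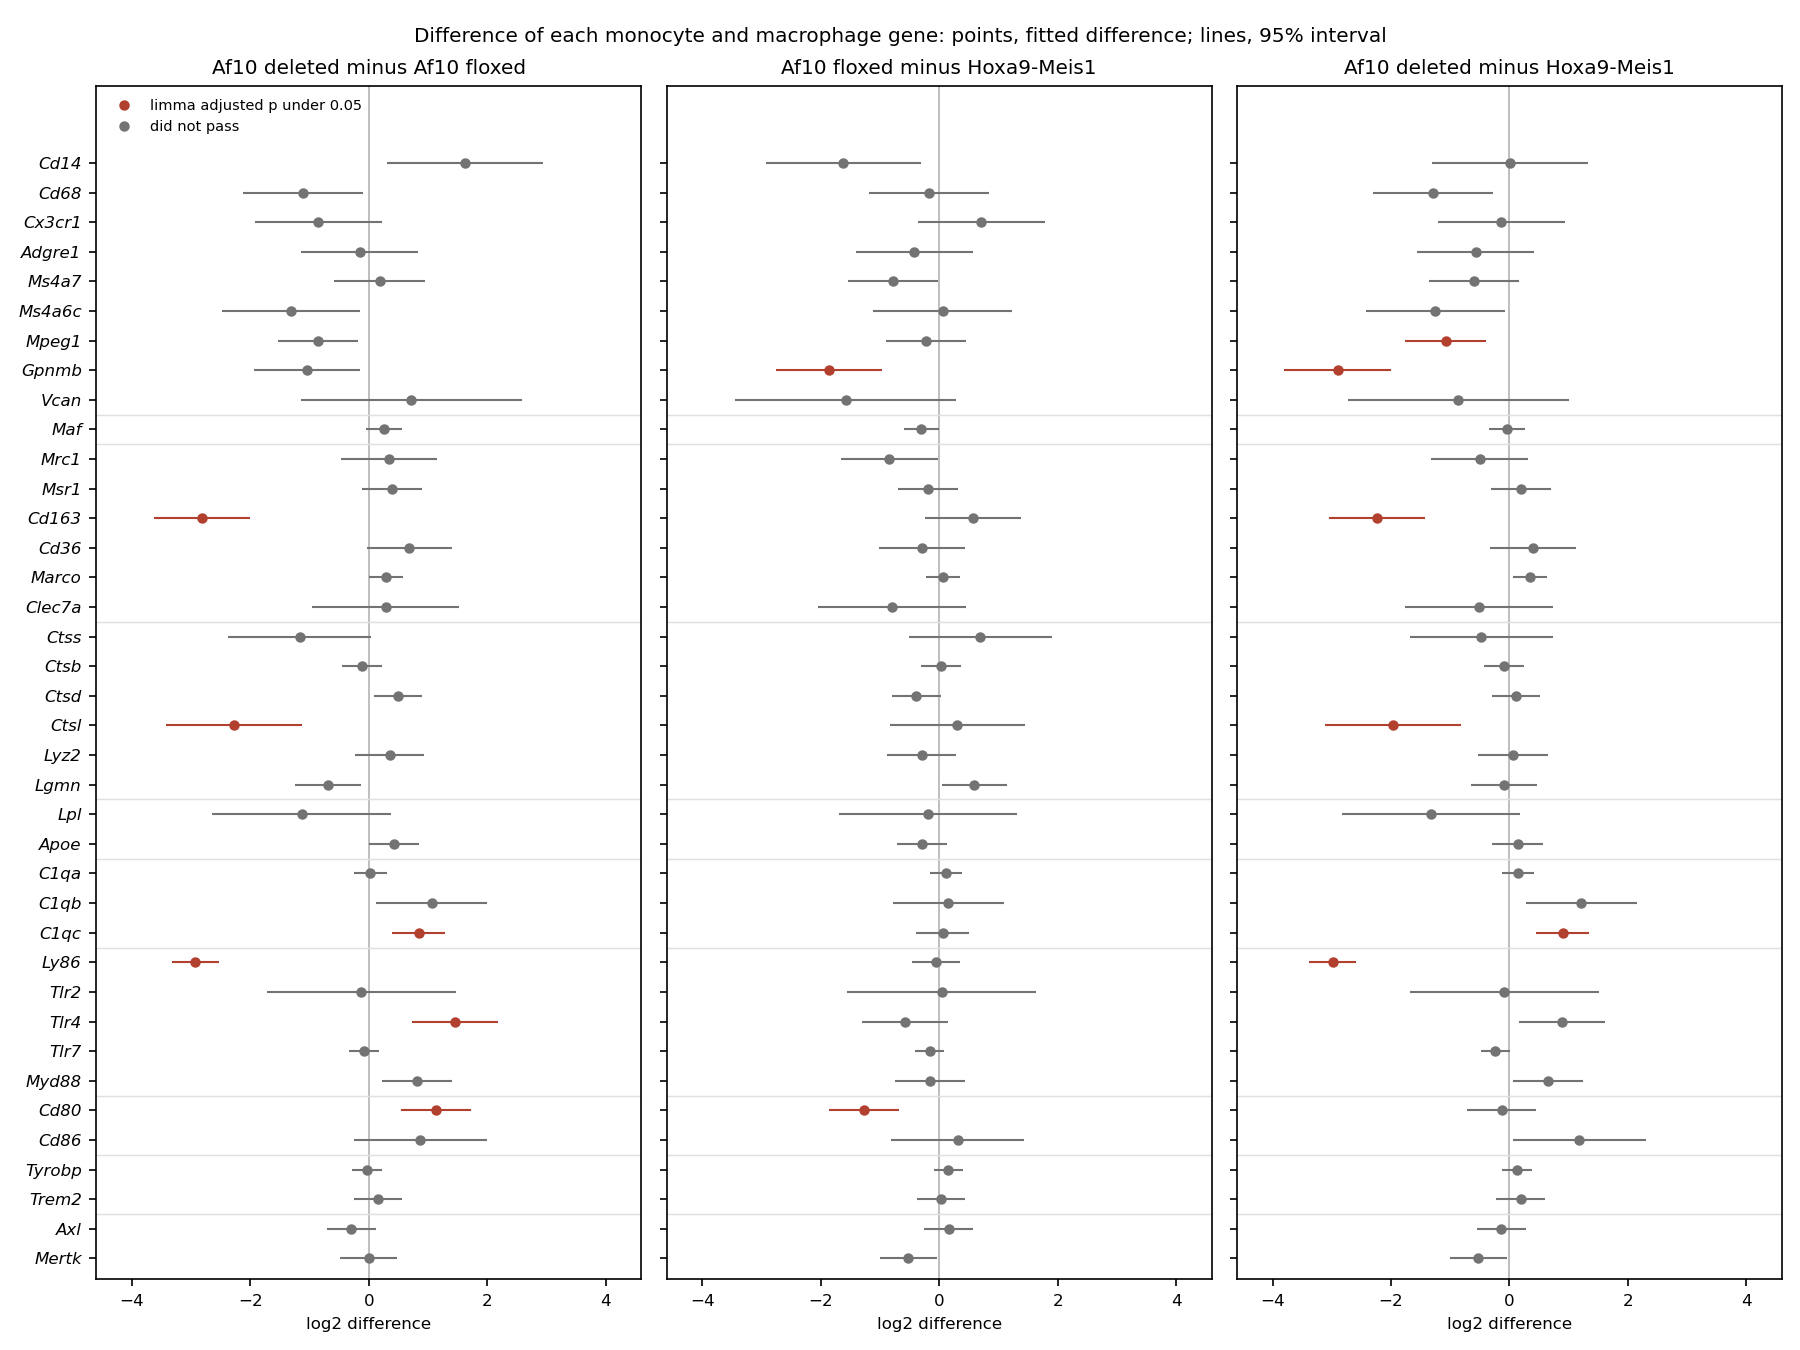
Fitted log2 difference of each member in the 3 comparisons, with its 95% interval as a line and members past a limma adjusted p of 0.05 in red; horizontal lines separate roles. Of the first comparison's differences, 20 lie above 0 and 18 below, and Ly86 has a short interval at -2.93.

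The probe sets disagreed for Vcan and Maf. Vcan encodes versican, a proteoglycan of classical monocytes, and its brightest probe set was at 7.83, 7.26 and 8.18 on the deleted arrays, 7.16, 6.81 and 7.16 on the floxed arrays, and 7.66, 7.19 and 11.00 on the Hoxa9-Meis1 arrays. Hoxa9-Meis1 replicate 3 stood apart on 6 of the 8 probe sets. The spread that this array adds enters the common fit, in which the representative differed between deleted and floxed by 0.72 (adjusted p = 0.659). Another probe set, 1421694_a_at, was at 7.25, 6.21 and 7.94 on the deleted and 4.95, 5.21 and 4.96 on the floxed arrays, without overlap (difference 2.09, adjusted p = 0.363 over all probe sets). In a fit of the MLL-AF9 arrays alone, chosen after seeing the data, 1421694_a_at, 1427256_at and 1447887_x_at rose by 2.09, 2.12 and 1.54, with adjusted p = 0.0414, 0.0212 and 0.0116. The representative did not pass there (adjusted p = 0.182).

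Maf encodes a transcription factor of macrophages, and its brightest probe set, 1447945_at, was at 8.53 ± 0.10, 8.27 ± 0.14 and 8.57 ± 0.19 in the deleted, floxed and Hoxa9-Meis1 groups. Probe set 1437473_at was at 7.07, 7.55 and 6.44 on the deleted arrays, 6.91, 7.35 and 7.70 on the floxed arrays, and 10.00, 10.78 and 9.43 on the Hoxa9-Meis1 arrays. On that probe set all Hoxa9-Meis1 arrays were higher than any MLL-AF9 array, and 1444073_at and 1456060_at had the same order. These 3 of the 6 probe sets differed between floxed and Hoxa9-Meis1 leukemias by -2.75, -2.71 and -2.39 (adjusted p = 0.00349, 0.0017 and 0.0109). With the mean of all probe sets in place of the brightest, Maf was called lower in floxed than in Hoxa9-Meis1 leukemias (-1.79, adjusted p = 0.00521) and lower in deleted than in Hoxa9-Meis1 leukemias (-2.05, adjusted p = 0.00158). Which probe sets report the Maf transcript was not tested. For Ctsb, 1 of 5 probe sets, 1444987_at, differed likewise between floxed and Hoxa9-Meis1 leukemias (-1.38, adjusted p = 0.00967), while the representative did not (0.02, adjusted p = 0.947).

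**Figure D3:**
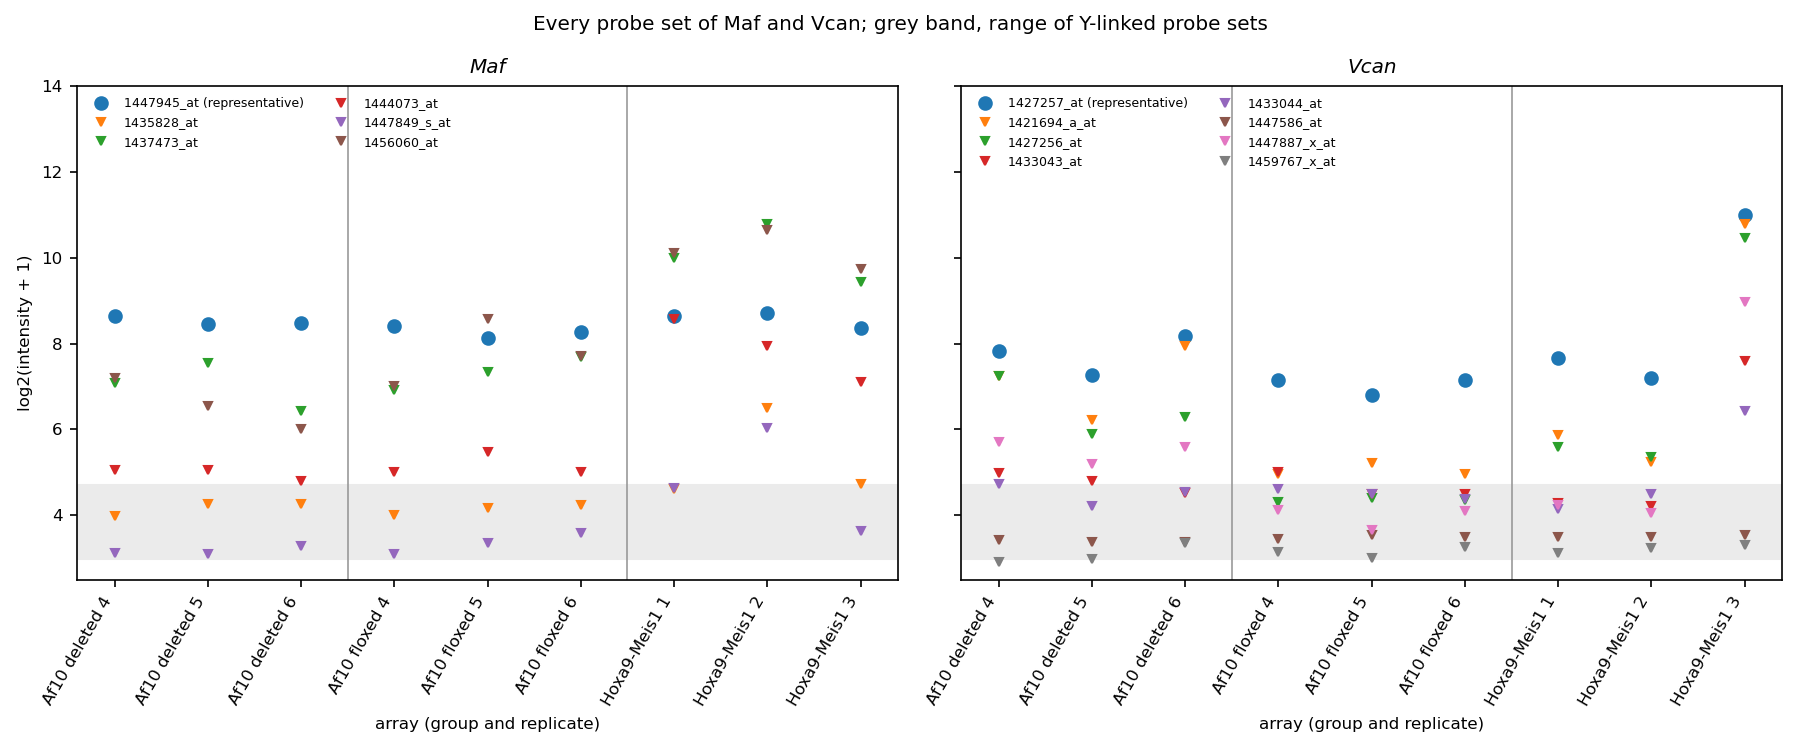
Every probe set of Maf (left) and Vcan (right) on each array, as log2(intensity + 1); the large circle is the probe set that stood for the gene and the grey band spans the Y-linked probe sets, 2.97 to 4.71. Maf 1437473_at, 1444073_at and 1456060_at are high on the 3 Hoxa9-Meis1 arrays, and Vcan 1427257_at reaches 11.00 on Hoxa9-Meis1 replicate 3.

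The remaining roles showed no called member. Tyrobp, the ITAM adaptor DAP12, was at 13.92 ± 0.11, 13.95 ± 0.11 and 13.79 ± 0.09 in the deleted, floxed and Hoxa9-Meis1 groups, and its receptor partner Trem2 at 7.84 ± 0.03, 7.68 ± 0.36 and 7.65 ± 0.20. The Tyrobp difference between deleted and floxed was -0.03 (95% interval -0.28 to 0.22). Axl and Mertk, receptor kinases for the uptake of dead cells, were dim, and Mertk reached its highest value, 6.35, on Hoxa9-Meis1 replicate 3. Lpl, lipoprotein lipase, was at 7.07, 5.50 and 6.84 on the deleted and 7.15, 7.70 and 7.97 on the floxed arrays (difference -1.14, adjusted p = 0.358). Apoe, a lipoprotein component secreted by macrophages, was at 8.07 ± 0.34, 7.64 ± 0.07 and 7.93 ± 0.25.

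Between floxed and Hoxa9-Meis1 leukemias 2 members were called lower in floxed, Gpnmb and Cd80, where 3.31% of all genes were called lower. No member was called higher by limma (1 at an unadjusted p under 0.05, none under the quantile, centring or probe set alternatives), where 5.58% of all genes were. Between deleted and Hoxa9-Meis1 leukemias 5 members were called lower (Ly86, Gpnmb, Cd163, Ctsl and Mpeg1), 13.2% of the members beside 6.23% of all genes. Only C1qc was called higher there, 2.63% of the members beside 9.27% of all genes. The comparisons share arrays, so the same group's values enter more than 1 of them.

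Counting members whose 2 groups of arrays did not overlap gave a wider view of the same levels. Between deleted and floxed leukemias 10 members lay wholly higher and 8 wholly lower, 26.3% and 21.1% of the members, where 15.1% and 10.7% of all genes did so. The 10 were Vcan, Maf, Msr1, Cd36, Marco, Ctsd, C1qc, Tlr4, Myd88 and Cd80, and the 8 were Cd68, Mpeg1, Gpnmb, Cd163, Ctss, Ctsl, Lpl and Ly86. For Maf this holds on the representative probe set, while 1437473_at and 1456060_at overlapped, with differences of -0.298 and -1.185. Other probe sets also overlapped for Vcan, Msr1, Cd36, Marco, Cd80, Ctsl and Lpl. Msr1 1422062_at differed by -0.07, Marco 1449498_at by 0.07, Ctsl 1457724_at by -0.98 and Lpl 1431056_a_at by -0.48. On the representatives, the lowest deleted and highest floxed values were 7.99 and 7.94 for Msr1, and 6.51 and 6.45 for Marco. Cd36 was dim, with 5.02 on its lowest deleted and 4.98 on its highest floxed array. Between floxed and Hoxa9-Meis1 leukemias no member lay wholly higher in floxed, where 15.4% of all genes did, and 8 lay wholly lower beside 12.1% of all genes. Between deleted and Hoxa9-Meis1 leukemias 3 lay wholly higher beside 21.7% of all genes, and 9 wholly lower beside 13.2%.

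The members' differences between deleted and floxed leukemias were large and their replicates were spread. The median size of the difference, without its sign, was 0.688 for the members and 0.191 for all genes, and 12 members (31.6%) differed by more than 1 on the log2 scale beside 5.91% of all genes. Of those 12, 7 were not called, namely Cd14, Cd68, Ms4a6c, Gpnmb, Ctss, Lpl and C1qb. Because the members were chosen with earlier results of these data known, these sizes and shares only describe the set. The SD within groups that remained after the fit was 0.447 for the median member, with a range of 0.0945 to 1.23, and 0.2 for the median gene. It was above the median of all genes for 32 of the 38 members and above their 75th percentile for 26. The median size of the difference was 0.292 for the members between floxed and Hoxa9-Meis1 leukemias, beside 0.196 for all genes, and 0.49 between deleted and Hoxa9-Meis1 leukemias, beside 0.211.

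Part of this spread followed single arrays. Deleted replicate 6 was the lowest array of its group for 23 of the 38 members (60.5%), beside 34.9% of all genes. Floxed replicate 4 was the lowest of its group for 20 members (52.6%), beside 26.9% of all genes. Hoxa9-Meis1 replicate 3 was the highest of its group for 25 members (65.8%), beside 31.9% of all genes, and held the highest values of Cd14, Cd68, Ms4a6c, Mpeg1, Gpnmb, Vcan, Ctss, Lyz2, Lpl and Tlr2 in that group. The Gapdh control probe sets at the 3′ end exceeded those at the 5′ end, a gauge of RNA integrity, by a gap that was 1.03 on floxed replicate 5 and 0.44 to 0.814 on the other arrays, and its part in these values was not tested. Deleted replicate 6, floxed replicate 5 and Hoxa9-Meis1 replicate 3 were also left out together, an alternative chosen after seeing the data. Between deleted and floxed leukemias, 2 members were then called higher, Cd80 and the newly called Cd14, and 2 lower, Ly86 and Cd163. C1qc, Tlr4 and Ctsl were lost, and of all genes 250 were called higher and 345 lower.

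**Figure D4:**
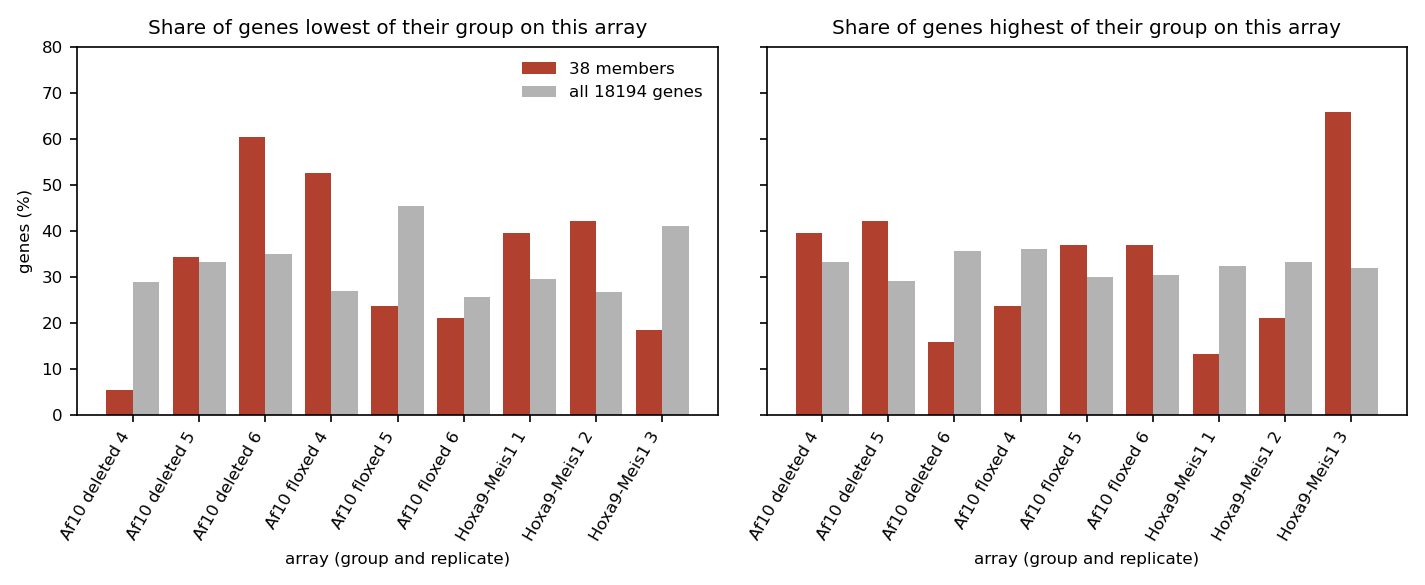
Share of the 38 members (red) and of all 18194 genes (grey) for which each array was the lowest (left) or highest (right) of the 3 arrays of its group, in percent of genes; ties count for no array. The members' bars reach 60.5% lowest on deleted replicate 6 and 65.8% highest on Hoxa9-Meis1 replicate 3.

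**Figure D5:**
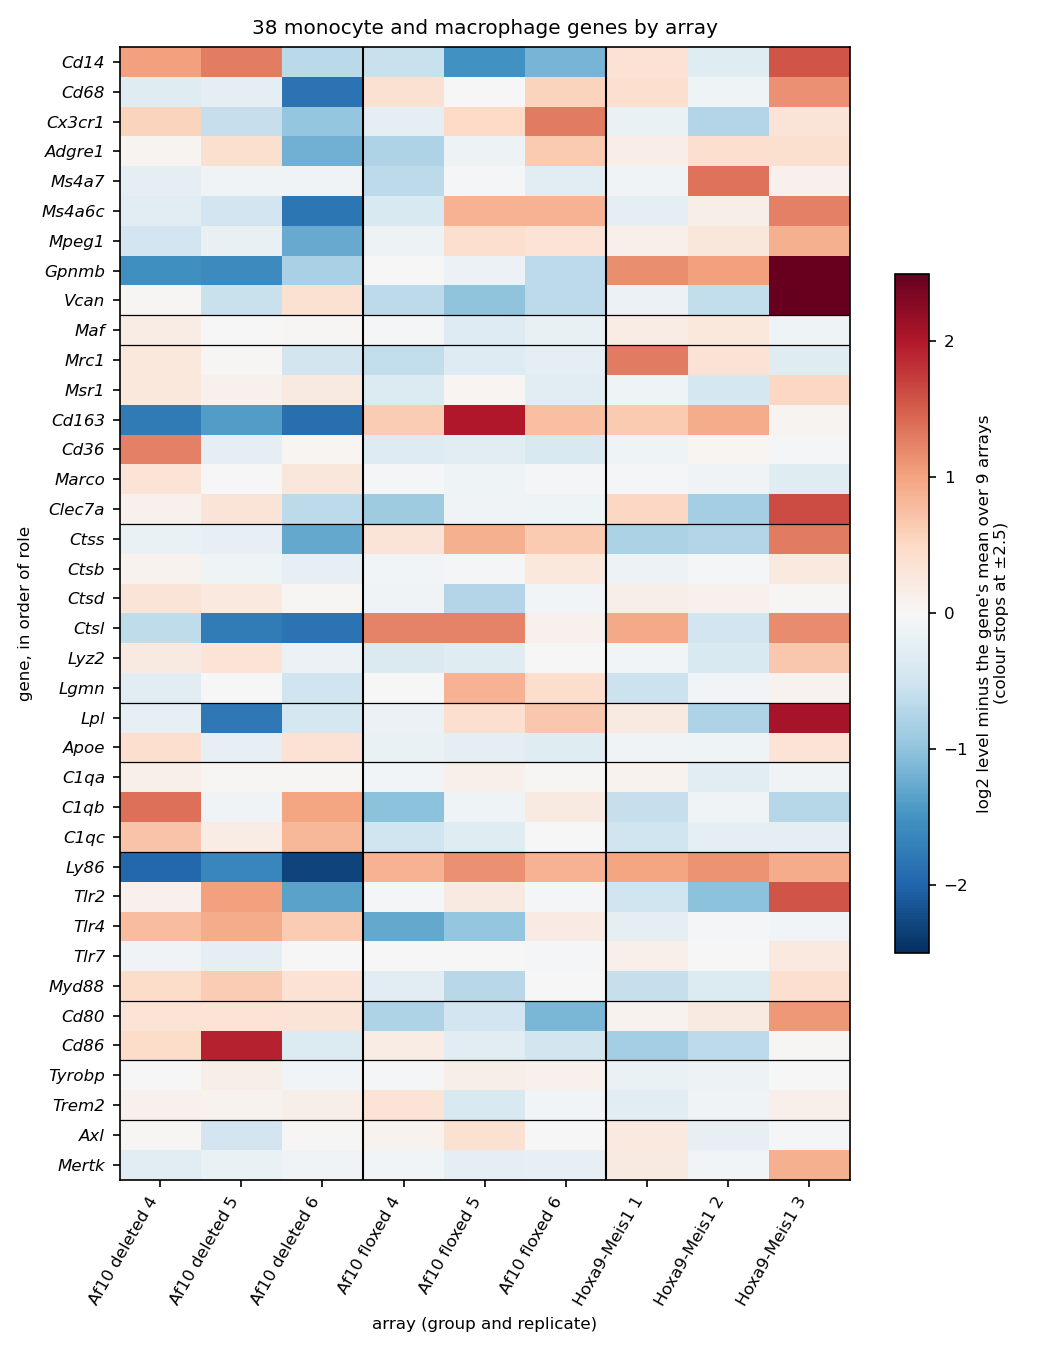
Level of each member on each array minus that gene's mean over the 9 arrays, on the log2 scale, with colour stopping at ±2.5 and genes ordered by role. Ly86 and Cd163 are blue across the 3 deleted arrays, and the Hoxa9-Meis1 replicate 3 column is red for Gpnmb and Vcan.

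Regulators and growth factor receptors of the monocyte lineage, a list of 22 other genes measured, did not move as 1 block either. Irf8, a transcription factor needed for monocyte and dendritic cell development, was at 9.28, 9.69 and 9.07 on the deleted, 11.27, 10.78 and 11.62 on the floxed, and 10.65, 10.99 and 12.02 on the Hoxa9-Meis1 arrays. The deleted arrays were the 3 lowest, and Irf8 fell by 1.88 from floxed (SE 0.35, adjusted p = 0.0151), a call lost without deleted replicate 4 (adjusted p = 0.0538). Ccr2, the chemokine receptor that draws monocytes out of bone marrow, fell by 1.71 (adjusted p = 0.0314), and Csf2ra, a chain of the GM-CSF receptor, rose by 0.93 (adjusted p = 0.0468). Spi1, which encodes PU.1, differed by 0.77 (adjusted p = 0.1) and Csf1r, the receptor for the macrophage growth factor M-CSF, by 0.02 (95% interval -0.77 to 0.82), both outside the rule for named genes and given for their role. The Ccr2 call was lost without deleted replicate 5 or 6 and without floxed replicate 5 or 6, with the replicate block and with the mean of probe sets (adjusted p at most 0.12). The Csf2ra call was lost in 11 of 16 alternatives (at most 0.128): without any MLL-AF9 array except floxed replicate 6, and with a pseudocount of 32, the mean of probe sets, array weights, chromosome medians subtracted, the MLL-AF9 arrays alone or the 3 arrays left out together.

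Other lists around the members changed in a few genes each. Among 25 other monocyte and macrophage surface genes, F13a1, a coagulation factor chain made by monocytes, rose by 1.06 (adjusted p = 0.0139) and held under every alternative. Clec5a, a DAP12-coupled lectin receptor, rose by 1.92 (adjusted p = 0.0415) and Clec10a, a galactose lectin of macrophages, fell by 1.38 (adjusted p = 0.0395), and each was lost in 9 of 16 alternatives, Clec5a without any MLL-AF9 array except floxed replicate 6 and Clec10a without deleted replicate 4 or 6 or floxed replicate 4 or 5. Among 17 genes of ITAM and C-type lectin signalling, Lat2, a membrane adaptor, fell by 3.10 (SE 0.27, adjusted p = 0.000317) and was the only call. Among 19 genes of the uptake of dead cells, the integrin chain Itgb3 fell by 2.04 (adjusted p = 0.000226) and Itgb5 rose by 1.30 (adjusted p = 0.00315). The median differences were 0.211, 0.21 and 0.131 in these 3 lists and 0.344 in the list of regulators, beside 0.0616 over all genes.

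Markers of other bone marrow cells moved in the same comparison. Of 15 late neutrophil markers, Lrg1 and Cxcr2 rose by 2.18 and 1.90 (adjusted p = 0.0027 and 0.00398) and none fell, and their summed intensity was 106600 to 139800 on the deleted, 77650 to 125600 on the floxed and 78440 to 117100 on the Hoxa9-Meis1 arrays. Of 12 primary granule and progenitor markers, Flt3 fell by 4.56, Cd34 fell by 3.57 and Kit fell by 0.96, the last a call lost without any single MLL-AF9 array and in 11 of 16 alternatives, with summed intensities of 71750 to 80850, 60940 to 79930 and 72420 to 91690. Of 13 T and NK cell markers 4 rose and 1 fell, among them Gzma at a difference of 1.56 and Cd5 at -1.20, and their summed intensity was 3769 to 6081, 5418 to 7414 and 4945 to 7533. Dendritic cell markers summed to 5344 to 7075 on the deleted, 11460 to 13320 on the floxed and 6912 to 8182 on the Hoxa9-Meis1 arrays, with Tcf4 as the only called gene of 15 (-1.83). A sum follows the brightest genes of a list. On the deleted and floxed arrays, mean log2 levels were 7.25 to 7.39 and 6.93 to 7.14 for T and NK cell markers. For dendritic cell markers they were 7.39 to 7.61 and 7.48 to 7.84. For primary granule and progenitor markers they were 10.5 to 10.7 and 11.3 to 11.5. B cell markers had 1 call of 11 (Cd79b, -0.75), erythroid markers 1 of 8 (Rhd, -1.10), and megakaryocyte markers 0 of 9 (1 at an unadjusted p under 0.05). The part of these cells in the members' differences was not tested.

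Mast cell, basophil and eosinophil markers had no call of 10 between deleted and floxed leukemias (2 at an unadjusted p under 0.05). Their summed intensity was 2400 to 3232 on the deleted, 2532 to 3424 on the floxed and 5312 to 16400 on the Hoxa9-Meis1 arrays, and 4 of the 10 were called lower in floxed than in Hoxa9-Meis1 leukemias. The part of these cells in the Gpnmb and Maf differences from Hoxa9-Meis1 leukemias was not tested.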

How the data were processed

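Expression was measured on 9 one-colour Affymetrix arrays. The deposited intensities came from RMA, per the submitters' processing notes. Its version is not given in the sources used here, nor is the chip definition. The deposited values run from 4.6 to 32082, a linear scale, so log2(intensity + 1) was taken. RMA makes the arrays' distributions alike, so a shift of most genes would be removed at least in part. Median intensity was still lower on every deleted array than on all other arrays. Arrays have no depth, and their number limits the precision.

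The platform annotation gave 1 symbol for 34958 of 45101 probe sets, several for 932, and did not list 9211. Probe sets with several symbols or none were left out, and the probe set brightest on average over 9 arrays stood for each of 18194 genes. A group-means model of all 9 arrays was fitted with limma 3.58.1 in R 4.3.3 (lmFit, eBayes, two-sided, Benjamini-Hochberg over all genes of a comparison, called at 0.05). Single probe sets of a member were read from the same fit over all 45101 probe sets. The fitting code was tested on simulated data. Log2 differences of dim genes are understated by the pseudocount of 1. Replicates 4 to 6 are the labels' numbers; Hoxa9-Meis1 arrays are numbered 1 to 3 in accession order.

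Members and gene lists were chosen with earlier results of these data known. Full values are given for members called in any comparison and for members whose probe sets disagree; of each other list up to 3 called genes with the largest difference between deleted and floxed leukemias are named. Alternatives were a pseudocount of 32, quantile normalization, centring, the mean of probe sets, a filter at a mean of 6, array weights, subtraction of chromosome medians, the 2 compared groups alone, the replicate block, and each array left out. Promoter windows came from RefSeq (GRCm38.p6).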

Additional observations from a re-analysis of the deposited data

How the results depend on the processing

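No value called with all arrays and main settings changed sign under any alternative run. The Ly86 and Cd163 calls against both other groups held throughout. Of all 18194 genes, 585 were called higher and 661 lower against floxed. These counts were 562 and 647 with array weights, and 766 and 578 with centred arrays. With only the 2 groups they were 385 and 450, and with an array left out 284 to 588 and 361 to 616. Against floxed, the 3 members called higher became 1 with array weights and 1 with only the 2 groups in the fit, and 0 to 2 with an array left out; the 3 called lower became 2 to 3. Whether replicate numbers pair the MLL-AF9 arrays was not settled. Deviations of same-numbered arrays correlated at 0.0331, 0.0528 and 0.00862, and those of unlike-numbered arrays at -0.127 to 0.0804. Such correlations over 3 arrays per group cannot exclude a shared origin. With the replicate block 2 members were called higher and 3 lower, with Cd80 lost, beside 620 higher and 672 lower of all genes. For floxed against Hoxa9-Meis1, the 0 called higher became 0 to 1 (Ctss, without Hoxa9-Meis1 replicate 3) and 1 with the 3 arrays that stood apart left out, and the 2 called lower became 1 with only those groups in the fit and 1 to 3 with an array left out. For deleted against Hoxa9-Meis1, the 1 called higher became 2 with centred arrays, 0 with the filter at a mean of 6, which removes C1qc, 3 with array weights, 2 with only those groups, 0 to 2 with an array left out and 4 with the 3 arrays left out (Ctss, Tlr2, Myd88 and Cd86), where Ctss turned from -0.48 to 0.57 and Tlr2 from -0.09 to 1.33. The 5 called lower became 4 with a pseudocount of 32, centred arrays or only those groups (Mpeg1 lost), 6 with the mean of probe sets (Maf added, which also made the 2 lower in floxed 3), 3 to 4 with an array left out and 3 with the 3 arrays left out (Gpnmb, Cd163 and Ly86). Calls over all genes moved as well. For floxed against Hoxa9-Meis1, 1015 higher and 603 lower became 764 and 453 with only those groups. With an array left out they became 433 to 1141 and 248 to 658. For deleted against Hoxa9-Meis1, 1687 and 1134 became 2252 and 968 with centred arrays and 2537 and 1572 with array weights. Those 2 groups alone gave 1735 and 1100, and the 3 arrays left out 1997 and 1179. With 1 array left out they were 893 to 1627 and 647 to 1083. Beyond the smaller number of genes or arrays, the cause was not tested. Signal over background limits C1qa, Axl, Mertk and Cd36, whose values lie near the dimmest probe sets. Mrc1, Ms4a7 and C1qb reached down to 5.01, 5.03 and 5.10. The called gene C1qc lay at 5.49 to 5.99 in the floxed and Hoxa9-Meis1 groups.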
